A study of Rattus norvegicus with 19 samples.

Results

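The set described here holds 10 transcripts encoded by mitochondrial DNA and made from its heavy strand: Mt-nd1 (ENSRNOG00000030644), Mt-nd2 (ENSRNOG00000031033), Mt-co1 (ENSRNOG00000034234), Mt-co2 (ENSRNOG00000030371), Mt-atp6 (ENSRNOG00000031979), Mt-co3 (ENSRNOG00000030700), Mt-nd3 (ENSRNOG00000033615), Mt-nd4 (ENSRNOG00000029707), Mt-nd5 (ENSRNOG00000029971) and Mt-cyb (ENSRNOG00000031766). They were chosen as 10 of the 32883 Ensembl gene IDs in the deposited count table, and their pairing with symbols came with the list that defines the set. The reference table used here holds 0 Ensembl IDs and 0 genes of the mitochondrial chromosome, so no annotation could check the pairing. In the table the 10 IDs stood within 30 consecutive rows, in the order in which the list names them, and 8 of them were among the 10 IDs with the most counts.

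The 19 libraries came from brain lysates of Wistar females, which the series text narrows to the amygdala, although its design text speaks of males. The groups are named for what the fathers had met. Fathers of the control group (5 daughters) had no exposure named in the labels, and those of the HFD group (4 daughters) had eaten a high-fat diet. Early life stress, which the design text calls maternal separation, marks the fathers of the ELS group (5 daughters), and both exposures mark those of the ELS-HFD group (5 daughters). All daughters were themselves kept on chow and met an elevated plus maze at postnatal day 57 ± 1. The labels do not say which daughters share a father or litter, so the tests set group differences against the spread between daughters. Daughters of the same father or litter would not be independent for an exposure of the father, and the p-values could then be too small. Tissue markers could not be checked, because the sources used here name no other ID.

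Mitochondrial DNA codes for core subunits of the respiratory chain, and nuclear genes code for the remaining subunits. Its heavy strand is transcribed as a long precursor, which is cut at the transfer RNAs into single messages. These messages carry short poly(A) tails, so they pass an enrichment for polyadenylated RNA. After cutting, each message has its own lifetime, and levels can differ although the precursor is shared. Neurons depend strongly on oxidative phosphorylation, and mitochondrial messages are abundant in brain RNA.

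Library totals ran from 7034837 to 20266594 counts, and the lowest count of any of the 10 transcripts in any library was 4647, for Mt-nd3. In a principal component analysis of the other IDs, with the 10 transcripts left out, HFD replicate 1 lay at 113.6 on the first component. ELS-HFD replicates 2 and 3 lay at 49.3 and 47.8, and the other 16 libraries lay between -29.0 and 10.6. HFD replicate 1 and ELS-HFD replicate 2 also had the fewest IDs with a count (17632 and 17579). The other libraries began close by, at 17765, and reached 18986, with ELS-HFD replicate 3 at 18505. ELS-HFD replicate 2 also had the lowest library total. Fold changes and group means of shares are therefore also given without these libraries, and what sets them apart was not tested.

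The 10 transcripts together took between 8.40% and 24.9% of the counts of a library. The share was 10.9, 10.6, 11.5, 11.8 and 12.1% in control replicates 1 to 5. It was 24.9, 11.8, 12.7 and 12.2% in HFD replicates 1 to 4. HFD replicate 1 stood far above every other library. Of the other HFD libraries, replicate 2 lay within the control range and replicates 3 and 4 just above it.

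Among daughters of stressed fathers the share was 10.9, 11.0, 10.1, 10.4 and 8.40% in ELS replicates 1 to 5. It was 13.2, 14.0, 15.9, 11.3 and 9.30% in ELS-HFD replicates 1 to 5, of which replicates 1 to 4 lay above every ELS library and replicate 5 within the ELS range. The group means were 11.4% ± 0.647 (SD, n = 5) in control, 15.4% ± 6.33 (SD, n = 4) in HFD, 10.2% ± 1.05 (SD, n = 5) in ELS and 12.7% ± 2.55 (SD, n = 5) in ELS-HFD. Without HFD replicate 1 the HFD mean was 12.3% ± 0.419 (SD, n = 3). Without ELS-HFD replicates 2 and 3 the ELS-HFD mean was 11.2% ± 1.93 (SD, n = 3). The highest shares belonged to HFD replicate 1, ELS-HFD replicate 3 and ELS-HFD replicate 2, the same libraries that stood apart on the component from all other IDs. In bulk tissue a different number of cells and a different amount of RNA per cell cannot be told apart.

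**Figure D1:**
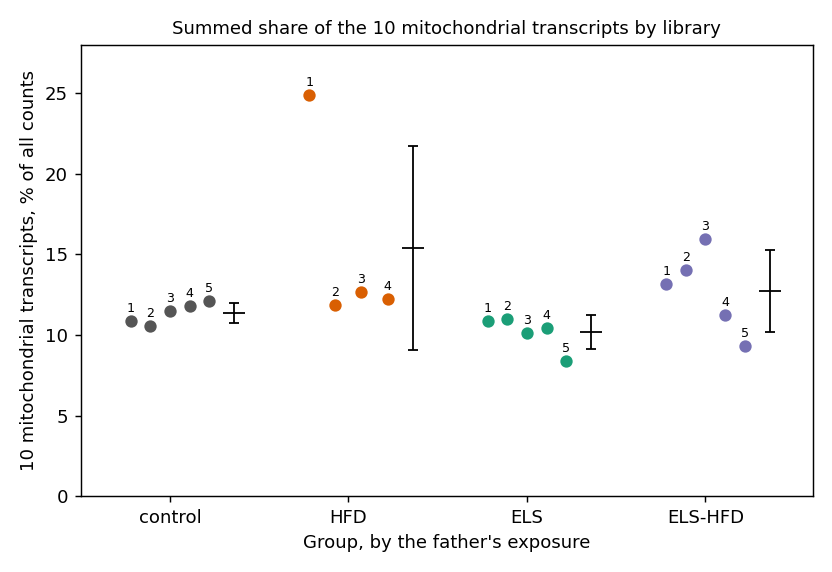
The vertical axis gives the summed counts of the 10 transcripts as a percent of all counts in a library, and each point is 1 library with its replicate number; the bar beside each group is its mean ± SD. HFD replicate 1 sits at 24.9%, and the other 18 libraries sit between 8.40% and 15.9%.

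For single transcripts, levels are given as CPM, edgeR's counts scaled to a common library size after adjustment by TMM (a scaling that evens out composition between libraries). Transcript lengths were not used here, so CPM compares libraries for 1 transcript and not transcripts with each other. The TMM factor of HFD replicate 1 was 0.772, against 0.984 to 1.07 in the other libraries. A lower factor gives a higher CPM. As a plain share, the 10 transcripts took 24.9% of its counts, against a control mean of 11.4%. In CPM every one of the 10 lay above the control mean in HFD replicate 1. The fold ran from 2.28 for Mt-nd5 to 3.17 for Mt-atp6, with a median of 2.89. The next library was ELS-HFD replicate 3, with a median fold of 1.46 and 9 of 10 above the control mean. Its exception was Mt-nd5, at 0.966 of that mean. At the other end, ELS replicate 5 had 0 of 10 above the control mean and a median fold of 0.666, and ELS-HFD replicate 5 had 1 of 10 and a median of 0.772.

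**Figure D2:**
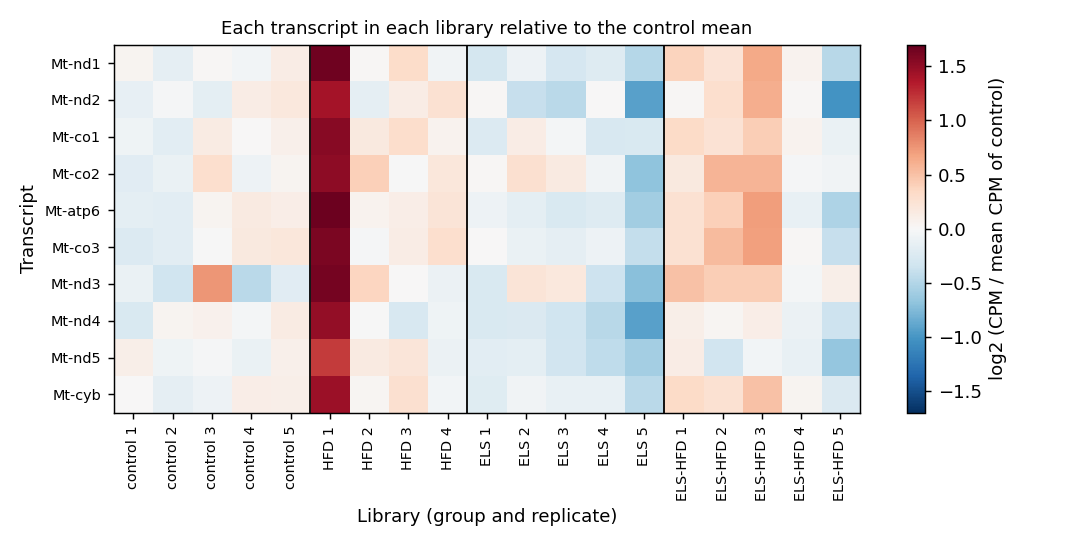
Each column is a library, each row a transcript, and colour gives log2 of its CPM over the mean CPM of the 5 control libraries (red above, blue below). The column of HFD replicate 1 is red in all 10 rows, and the column of ELS replicate 5 is blue in all 10.

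The comparison of HFD with control asks about the father's diet alone. Among the subunits of complex I, which passes electrons from NADH into the chain, Mt-nd1 was at 12410.0, 10844, 12228, 11641 and 13169 CPM in control. It was at 37958, 12279, 14938 and 11619.6 CPM in HFD. Only HFD replicates 1 and 3 exceeded the highest control library, and the groups overlapped. The edgeR log2 fold change was 0.67 ± 0.27 (SE; adjusted p = 0.616), and 0.10 ± 0.17 without HFD replicate 1.

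Mt-nd5, another membrane subunit of complex I, was at 8999, 8044, 8351, 7822 and 8940.4 CPM in control. It was at 19264, 9361, 9690.2 and 7872 CPM in HFD. The edgeR log2 fold change of 0.45 ± 0.20 (SE; adjusted p = 0.616) was the smallest of the 10, and it was 0.09 ± 0.14 without HFD replicate 1. Mt-nd4, also a membrane subunit, was at 2642, 3267, 3342, 3100.1 and 3476 CPM in control and at 8893, 3161, 2619.6 and 3017 CPM in HFD. It was the transcript whose difference changed sign, from 0.48 ± 0.26 (SE; edgeR adjusted p = 0.618) to -0.11 ± 0.14 (SE; edgeR adjusted p = 1.00) without HFD replicate 1. In the remaining HFD libraries it was thus within or below the control range.

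Mt-co1, the catalytic subunit of complex IV (cytochrome c oxidase, which reduces oxygen), was at 24907, 23000.2, 28889.6, 26261 and 27724 CPM in control. It was at 76474, 29457, 32172 and 27361 CPM in HFD. HFD replicates 1 to 3 lay above every control library and HFD replicate 4 lay within their range. Its edgeR log2 fold change was 0.66 ± 0.23 (SE; adjusted p = 0.616), and 0.18 ± 0.13 without HFD replicate 1.

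Mt-cyb, the cytochrome b of complex III, was at 15758, 14181, 14791, 16952 and 16789 CPM in control and at 42881, 16114, 18981 and 15234 CPM in HFD. Mt-atp6, which forms part of the proton channel of ATP synthase (complex V), was at 10271, 10142, 11858, 12710.5 and 12424 CPM in control and at 36433, 12013, 12445 and 13347 CPM in HFD. Apart from HFD replicate 1, only HFD replicate 3 exceeded every control library in Mt-cyb and only HFD replicate 4 in Mt-atp6. The other 4 transcripts also had their highest level in HFD replicate 1. In control and in HFD without replicate 1, Mt-nd2 spanned 13661 to 17435 and 13882 to 18447 CPM, Mt-co2 9476 to 13156 and 10734 to 14253 CPM, Mt-co3 7781 to 10431 and 8979 to 11109 CPM, and Mt-nd3 355 to 820.4 and 454 to 629 CPM. In HFD replicate 1 these 4 stood at 40833, 30827, 27560.2 and 1506 CPM.

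Over the set, all 10 transcripts had a positive fold change for HFD against control, with a median of 0.66, where the median over all 15372 IDs tested was 0.01. At an adjusted p of 0.05 edgeR, DESeq2 and limma-voom called 0 of the 10. Over all IDs edgeR called 0% and limma-voom 0, while DESeq2 called 5 of 15369. At an unadjusted p under 0.05, edgeR had 8 of the 10, DESeq2 8 and limma-voom 2, while by edgeR 4.77% of all IDs were higher in HFD. By DESeq2 901 of 15369 IDs were higher at that p, and by limma-voom 434 of 15372. These transcripts share libraries and a precursor and are not independent. In 0 of the 10 were all HFD libraries above all control libraries, against 0.618% of all IDs. With HFD replicate 1 left out the median was 0.11, 9 of 10 were positive, 0 of 10 had an unadjusted p under 0.05 and 1.33% of IDs were higher by that rule.

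ELS-HFD against ELS compares the diet with no diet where all fathers had been stressed. Mt-nd1 was at 9818, 11325, 9890.2, 10314 and 8594 CPM in ELS. It was at 15720.2, 14219, 18879, 12589 and 8725 CPM in ELS-HFD. ELS-HFD replicates 1 to 4 lay above every ELS library and replicate 5 lay near the bottom of the ELS range. Its edgeR log2 fold change was 0.49 ± 0.26 (SE; adjusted p = 0.281).

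Mt-co1 was at 22366, 28576, 25654, 21603 and 21783 CPM in ELS and at 32866, 31106, 35002, 27243 and 24199 CPM in ELS-HFD. Its edgeR log2 fold change was 0.33 ± 0.22 (SE; adjusted p = 0.373). Here ELS-HFD replicates 4 and 5 lay inside the ELS range and the other 3 above it. Mt-cyb was at 13561, 15062, 14427, 14342 and 11382 CPM in ELS and at 19583, 18766, 22142, 16220.0 and 13241 CPM in ELS-HFD, with a log2 fold change of 0.39 ± 0.22 (SE; edgeR adjusted p = 0.308). ELS-HFD replicate 5 was again the library that overlapped with ELS.

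Mt-nd4 was at 2656, 2669.7, 2494, 2290.2 and 1674 CPM in ELS and at 3404, 3249, 3429, 2946 and 2472 CPM in ELS-HFD, a log2 fold change of 0.40 ± 0.25 (SE; edgeR adjusted p = 0.353). Mt-atp6 was at 10792, 10227, 9625, 9862 and 7607 CPM in ELS and at 13776, 15219, 18794, 10499 and 7954 CPM in ELS-HFD, a log2 fold change of 0.46 ± 0.27 (SE; edgeR adjusted p = 0.317). Mt-nd5 had the smallest difference: 7463, 7548, 6748, 6257 and 5636 CPM in ELS, 9223, 6755, 8141, 7706 and 5329.6 CPM in ELS-HFD and a log2 fold change of 0.14 ± 0.19 (SE; edgeR adjusted p = 0.674). ELS-HFD replicate 3 exceeded every ELS library in Mt-nd5 too, as it did in the other transcripts given by library here, whereas ELS-HFD replicate 2 lay within the ELS range in Mt-nd5 and above it in those others. In ELS and ELS-HFD, Mt-nd2 spanned 8125 to 15537 and 7630.1 to 23493 CPM, Mt-co2 6723 to 13053 and 10350.3 to 16166 CPM, Mt-co3 6868 to 9170.5 and 6947 to 14759 CPM, and Mt-nd3 296 to 567 and 477 to 689 CPM.

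All 10 transcripts had a positive fold change for ELS-HFD against ELS, with a median of 0.39, beside 0.01 over all IDs tested. edgeR, DESeq2 and limma-voom called 0 of the 10 at an adjusted p of 0.05, and 0 of the 10 had an unadjusted p under 0.05 by any of them; edgeR called 0% of all IDs, with 8.73% higher at an unadjusted p under 0.05. Over all IDs limma-voom also called 0, while DESeq2 called 146 of 15369, none of them among the 10. In 0 of the 10 were all ELS-HFD libraries above all ELS libraries, against 3.19% of all IDs. HFD replicate 1 belongs to neither group but enters the common estimate of spread, and leaving it out changed the call. edgeR then called 4 of the 10, all higher in ELS-HFD, beside 15.5% of all IDs called in either direction. Of the 15547 IDs tested in that fit, 1174 were called higher in ELS-HFD. At an unadjusted p under 0.05 there were 7 of 10, beside 16.5% of IDs higher. The 4 were Mt-nd1 at 0.51 ± 0.15 (SE; adjusted p = 0.0318), Mt-co1 at 0.34 ± 0.11 (SE; adjusted p = 0.0462), Mt-nd4 at 0.41 ± 0.12 (SE; adjusted p = 0.0345) and Mt-cyb at 0.41 ± 0.12 (SE; adjusted p = 0.0345) on the log2 scale. With ELS-HFD replicates 2 and 3 left out as well, edgeR called 0 of the 10 and 0% of all IDs. The median log2 fold change was then 0.19, and 1 of 10 (Mt-nd4) had an unadjusted p under 0.05, beside 8.95% of IDs higher. In a fit of these groups alone edgeR called 0 of the 10 and 0 of all 14652 IDs tested.

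Paternal HFD averaged over early life sets HFD and ELS-HFD against control and ELS. All 10 transcripts were higher, with log2 fold changes from 0.30 ± 0.14 (SE) for Mt-nd5 to 0.58 ± 0.19 (SE) for Mt-nd1 and a median of 0.49, beside -0.0019 over all IDs. edgeR adjusted p-values ran from 0.147 to 0.201, so 0 of 10 were called; DESeq2 and limma-voom also called 0, with DESeq2's lowest adjusted p at 0.0562. At an unadjusted p under 0.05 edgeR and DESeq2 had 10 of 10 and limma-voom 7 of 10. Of all IDs edgeR called 0% and had 14.1% higher at that unadjusted p. DESeq2 had 2368 of 15369 IDs higher at that p and limma-voom 1756 of 15372. Over all IDs limma-voom called 0 and DESeq2 329 of 15369, of which 243 were higher and none was among the 10. The median was 0.26 once HFD replicate 1 was left out, and 5 of 10 (Mt-nd1, Mt-co1, Mt-atp6, Mt-co3 and Mt-cyb) had an unadjusted p under 0.05, beside 8.55% of IDs higher. Leaving out all 3 libraries gave a median of 0.14 and 1 of 10 (Mt-co1) at that p, beside 5.04% of IDs higher. All 10 fold changes stayed positive in both of these fits.

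**Figure D3:**
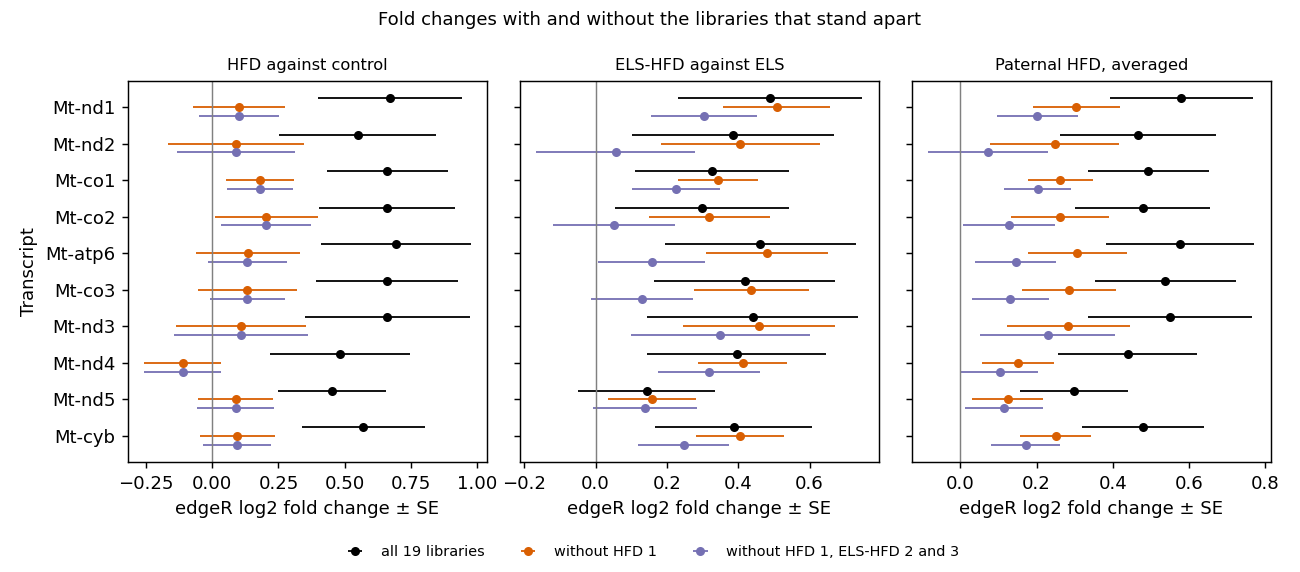
Points are edgeR log2 fold changes of each transcript and bars are ± SE, in 3 comparisons and for 3 sets of libraries. For HFD against control the points move from a median of 0.66 to 0.11 when HFD replicate 1 is left out, and for ELS-HFD against ELS they move from 0.39 to 0.19 when ELS-HFD replicates 2 and 3 are left out too.

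For ELS against control, which asks about the father's early life stress alone, all 10 fold changes were negative, with a median of -0.22 beside -0.0022 over all IDs. Mt-co2, at -0.02, turned positive with library totals in place of TMM (0.02) and without ELS replicate 5 (0.11), and Mt-co2 and Mt-nd3 did so without control replicate 3. edgeR, DESeq2 and limma-voom called 0 of the 10 and 0 had an unadjusted p under 0.05 by any of them; edgeR called 0% of all IDs and had 2.15% lower at that unadjusted p, while DESeq2 called 1 ID and limma-voom 0. Mt-nd5 was the transcript in which all 5 ELS libraries lay below all 5 control libraries, at 5636 to 7548 against 7822 to 8999 CPM. Of all IDs 1.45% showed that. Its log2 fold change was -0.33 ± 0.19 (SE; edgeR adjusted p = 0.913). Mt-nd4 was lowest by fold change, at -0.43 ± 0.25 (SE; edgeR adjusted p = 0.913), with ELS replicate 5 at 1674 CPM below all other libraries. Mt-nd4 and Mt-nd5 were the 2 of 10 at an unadjusted p under 0.05 when HFD replicate 1 was left out (4.33% of IDs were then lower), with edgeR adjusted p-values of 0.509 and 0.51.

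ELS-HFD against control gave 8 positive and 2 negative fold changes with a median of 0.20, beside 0.00 over all IDs. The negative ones were Mt-nd4 at -0.03 ± 0.25 and Mt-nd5 at -0.18 ± 0.19 (SE). edgeR, DESeq2 and limma-voom called 0 of the 10 and 0 had an unadjusted p under 0.05 by any of them; edgeR called 0% of all IDs and had 2.15% higher at that p, and DESeq2 and limma-voom also called 0 IDs. Leaving out the 3 libraries that stood apart gave a median of 0.01, with 5 of 10 positive.

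ELS-HFD against HFD gave 10 negative fold changes with a median of -0.46, beside -0.03 over all IDs, and 9 of 10 were positive with a median of 0.10 when HFD replicate 1 was left out. With all 3 libraries left out the median was -0.11 and 8 of 10 were negative. Mt-nd5 was negative in each of these fits. It was at -0.64 ± 0.20 (SE; edgeR adjusted p = 1.00), which was the 1 of 10 at an unadjusted p under 0.05, and at -0.25 ± 0.14 (SE; edgeR adjusted p = 0.441) without HFD replicate 1. edgeR, DESeq2 and limma-voom called 0 of the 10; edgeR called 0% of all IDs and had 1.28% lower at an unadjusted p under 0.05, while DESeq2 called 3 IDs and limma-voom 0. DESeq2 and limma-voom each had 1 of the 10 at that unadjusted p, beside 210 of 15369 and 168 of 15372 IDs lower.

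Averaged over diets, paternal ELS gave 10 negative fold changes with a median of -0.33, beside -0.0044 over all IDs. Mt-nd5 was at -0.48 ± 0.14 (SE, edgeR adjusted p = 0.995) and Mt-nd4 at -0.47 ± 0.18 (SE, edgeR adjusted p = 0.995). They were the 2 of 10 at an unadjusted p under 0.05, also with DESeq2 and limma-voom. These tools called 0 of the 10. Of all IDs edgeR called 0% with 1.48% lower at that p, while DESeq2 called 1 ID and limma-voom 0. DESeq2 had 213 of 15369 IDs lower at that p and limma-voom 200 of 15372. When HFD replicate 1 was left out the median was -0.05 with 7 of 10 negative, and Mt-nd5 stood at -0.29 ± 0.09 (SE; edgeR adjusted p = 0.998), the 1 of 10 then at an unadjusted p under 0.05, beside 1.39% of IDs lower. With all 3 libraries left out the median was -0.16, all 10 were negative, and Mt-atp6 and Mt-nd5 were at that p, beside 1.73% of IDs lower.

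The interaction asks whether the difference that goes with the diet depends on the father's early life. The log2 fold changes of the diet had a median of 0.66 without and 0.39 with paternal ELS. The interaction terms of all 10 transcripts were negative with a median of -0.23 (-0.03 over all IDs). They were all positive with a median of 0.31 without HFD replicate 1, where 1 of 10 (Mt-nd4) had an unadjusted p under 0.05, beside 10.4% of IDs higher. Without all 3 libraries 7 of 10 were positive with a median of 0.05. With library totals in place of TMM 9 of 10 were negative. edgeR, DESeq2 and limma-voom called 0 of the 10 and 0 had an unadjusted p under 0.05 by any of them; edgeR called 0% of all IDs and had 2.29% lower at that p, while DESeq2 called 5 IDs and limma-voom 0.

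The make-up of the set itself also differed between libraries. As a share of the counts of the 10 transcripts, Mt-nd5 was 8.44, 7.81, 7.19, 6.75 and 7.33% in control and 5.97, 7.79, 7.52 and 6.52% in HFD. It was 7.26, 6.91, 6.69, 6.29 and 7.16% in ELS and 6.89, 4.89, 5.04, 6.81 and 6.10% in ELS-HFD. The lowest values were in ELS-HFD replicates 2 and 3 and HFD replicate 1, the libraries in which the set as a whole was highest. The group means were 7.50% ± 0.646 (SD, n = 5) in control, 6.95% ± 0.853 (SD, n = 4) in HFD, 6.86% ± 0.39 (SD, n = 5) in ELS and 5.95% ± 0.949 (SD, n = 5) in ELS-HFD. With the 3 libraries left out, the mean was 7.28% ± 0.670 (SD, n = 3) in HFD and 6.60% ± 0.436 (SD, n = 3) in ELS-HFD, so the ELS-HFD mean then lay within 1 SD of the ELS mean. These shares are a description and were not tested.

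Mt-nd2, a membrane subunit of complex I, took 13.1, 14.7, 11.8, 14.4 and 14.3% of the set in control and 12.7, 11.6, 13.1 and 15.3% in HFD. It took 15.1, 10.8, 11.1, 15.5 and 10.3% in ELS and 11.6, 13.6, 14.6, 13.7 and 8.73% in ELS-HFD. ELS replicates 1 and 4 were high and ELS replicates 2, 3 and 5 low, so the ELS libraries alone spanned most of the range seen in the series. Mt-co1 ran the other way in the ELS group, with 21.8, 26.2, 25.4, 21.7 and 27.7%. It was highest in ELS-HFD replicate 5 (27.7%), the library where Mt-nd2 was lowest (8.73%), and shares of 1 sum are bound to offset each other.

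By complex, the 5 transcripts of complex I held 35.1% ± 1.44 (SD, n = 5) of the set in control, 33.8% ± 0.828 (SD, n = 4) in HFD, 32.5% ± 2.21 (SD, n = 5) in ELS and 32.3% ± 2.55 (SD, n = 5) in ELS-HFD. The 3 transcripts of complex IV held 40.8% ± 1.81 (SD, n = 5), 42.2% ± 1.20 (SD, n = 4), 43.7% ± 2.39 (SD, n = 5) and 43.1% ± 2.68 (SD, n = 5) in the same order. With the 3 libraries left out, complex I held 33.9% ± 1.00 (SD, n = 3) in HFD and 32.1% ± 3.40 (SD, n = 3) in ELS-HFD, and complex IV 42.3% ± 1.44 (SD, n = 3) and 43.6% ± 3.34 (SD, n = 3). Mt-cyb was the steadiest share, between 12.6% and 15.2% over the 19 libraries. Mt-nd3, a small subunit of complex I, varied most for its size, from 0.306% in control replicate 4 to 0.706% in control replicate 3.

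**Figure D4:**
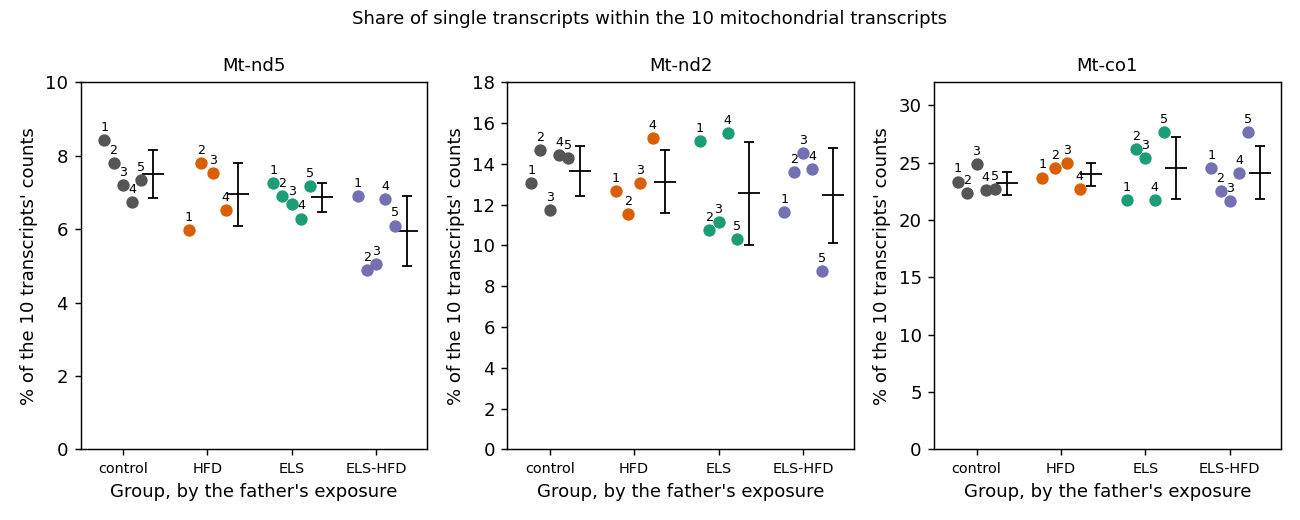
Each point is 1 library with its replicate number, the vertical axis gives the transcript's percent of the counts of the 10 transcripts, and the bar beside a group is its mean ± SD. Mt-nd5 is lowest in ELS-HFD replicates 2 and 3 (4.89% and 5.04%), while Mt-nd2 and Mt-co1 spread widely inside the ELS and ELS-HFD groups.

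Outside the set, IDs were ranked by the likeness of their log2 CPM to the mean log2 CPM of the 10 transcripts over the 19 libraries, among 9750 IDs with a mean of at least 10 CPM. The most alike was ENSRNOG00000000840, which no source used here names, with Pearson's r = 0.961 and Spearman's rho = 0.939. It stood at 551 CPM in HFD replicate 1, 389 CPM in ELS-HFD replicate 3 and 223 to 327 CPM in the others. It also had rank 1 without HFD replicate 1 (r = 0.909, 18 libraries), and rank 2 behind another ID without all 3 libraries that stood apart (r = 0.866, 16 libraries). The next, ENSRNOG00000020635, had r = 0.960 and had rank 5 without HFD replicate 1 (r = 0.890), and it was not among the first 5 without all 3. The IDs were picked for these values and all points share the scaling of their library, so r is a description.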

How the data were processed

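The values are whole-number counts per Ensembl gene ID, deposited by the authors without normalization, as the file's own numbers show. Rnor_6.0 and DESeq2 are the build and tool that the submitters' processing notes list. RNA (400 ng a library, per the labels' protocols) was enriched on poly(A) beads and reverse transcribed from random primers. No aligner, annotation release, strand setting or handling of multiply matching reads is given in the sources used here. Reads of light-strand RNA or of nuclear copies of mitochondrial genes can therefore not be told apart from the 10 transcripts.

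Each column was joined to its sample through the number in that sample's description. edgeR (version 4.0.16, R 4.3.3) kept 15372 IDs by filterByExpr, scaled by TMM and ran quasi-likelihood F tests in 1 model with group over all libraries. P-values were adjusted by Benjamini-Hochberg over all IDs tested and called under 0.05. The SE is the log2 fold change over the square root of F. Log2 CPM used a prior count of 2. Alternatives were DESeq2 (1.42.0), limma-voom (limma 3.58.1), other scalings, no filter, libraries left out, the compared groups alone and a replicate block. The procedure was tested on simulated counts, drawn for each ID on its own and without outlying libraries. That test does not cover libraries that stand apart or transcripts that vary together. The least different pair within a group, ELS-HFD replicates 2 and 3, had a chi-square per degree of freedom of 5.03, so no library was counted as a repeat of another. The other pairs of that group ran from 17.5 to 63.8.

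The 10 transcripts, lists and tests were chosen with earlier results of these data known. All 10 are named. Lists of nuclear respiratory chain genes, of mitochondrial RNA factors and of cell type markers need symbols and were not tested. The rule asked for the 5 IDs most like the set, of which 2 are printed.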

Additional observations from a re-analysis of the deposited data

Results flagged for a closer look

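The summed share and the 10 transcripts were screened in each of the 4 groups, 44 screens in all, for a highest or lowest library with a wide gap to its neighbour. Of these screens 11 found one, in 2 different libraries. Chance gives about 1 in 20 only for independent screens, so that rate is no yardstick here. HFD replicate 1 had already been named for leaving out in the rule that defines the set. The screens overlap, because 1 library enters all of them in its group.

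HFD replicate 1 accounted for 10 of them. Its summed share of all counts was 24.9%, with Mt-nd1 at 37958 CPM, Mt-nd2 at 40833 CPM, Mt-co1 at 76474 CPM, Mt-atp6 at 36433 CPM, Mt-co3 at 27560.2 CPM, Mt-nd3 at 1506 CPM, Mt-nd4 at 8893 CPM, Mt-nd5 at 19264 CPM and Mt-cyb at 42881 CPM. Mt-co2 was also highest in this library, at 30827 CPM, but its distance to the next HFD library (14253 CPM) was not large enough against the group's range.

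Control replicate 3 had Mt-nd3 at 820.4 CPM, where the other control libraries lay between 355 and 448 CPM.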

How the results depend on the processing

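Each comparison was recomputed with DESeq2, limma-voom, other scalings, no filter, libraries left out, the compared groups alone and a replicate block. The number of the 10 transcripts called stayed at 0 in all of these fits but 1: for ELS-HFD against ELS it ran from 0 to 4 over the fits that left out 1 library, with 4 without HFD replicate 1. That fit called 2405 of 15547 IDs, 1174 of them higher in ELS-HFD. The median log2 fold change of the set over the fits that left out 1 library ran from 0.11 to 0.77 for HFD against control, from -0.60 to 0.10 for ELS-HFD against HFD and from -0.38 to 0.31 for the interaction. In each case the value nearest to or past 0 on the other side came without HFD replicate 1. In the other comparisons the median kept its sign over these fits. It ran from 0.30 to 0.48 for ELS-HFD against ELS and from 0.26 to 0.56 for paternal HFD averaged over early life. For ELS-HFD against control it ran from 0.10 to 0.32. It ran from -0.26 to -0.16 for ELS against control and from -0.40 to -0.05 for paternal ELS averaged over diets. With all 3 libraries that stood apart left out, the median for HFD against control was 0.10. The fold change of Mt-nd4 for HFD against control was -0.11 in that fit and ran from -0.11 (no HFD replicate 1) to 0.66 over the fits that left out 1 library. Over the counts of all other IDs, the mean share was 12.8% in control and 11.3% in ELS, which differs by construction. Deviations of same-numbered libraries correlated between -0.436 and 0.570 over 27 pairs. Their median r was -0.049, beside 0.0042 for libraries with other numbers. Of 19 libraries 6 correlated best with their own number. These values cannot settle whether the replicate numbers pair animals. With the replicate block 0 of the 10 were called in any comparison, and the median for HFD against control was 0.50. In that fit 1 of 10 had an unadjusted p under 0.05 for HFD against control, beside 392 of 15372 IDs higher. For paternal HFD averaged over early life it was 7 of 10, beside 1801 of 15372 IDs higher. Over all IDs, edgeR and limma-voom called 0 in all 8 comparisons with all libraries, and DESeq2 called from 0 to 329. Counting error is small at these depths, so the spread between libraries limits the precision. What makes up that spread was not tested. A p that misses the threshold does not show that levels did not differ.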

Other observations

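Among the 30 consecutive lines of the table that run from the first to the last of the 10 transcripts, 20 belong to other IDs. Of these, 3 had at least 394171 counts each over the 19 libraries and the others at most 109. No source used here names them, and 2 of the 3 are given because they differed most between libraries; they were chosen after their values were seen. ENSRNOG00000029042 took 0.395% of the counts in HFD replicate 1 and 0.0838% to 0.209% in the other libraries, so it was highest where the 10 transcripts were highest. ENSRNOG00000033299 took 0.600% in HFD replicate 1, inside the range of 0.208% to 0.719% of the other libraries, and was highest in ELS replicate 2. The third took a share in HFD replicate 1 that was close to that of the other HFD libraries. The difference between these IDs was not tested.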
